A study of Ammopiptanthus mongolicus with 6 samples.

Results

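Under drought and under cold, a small set of leaf transcripts stood on opposite sides of the untreated level after 72 h. These 248 assembled transcripts (unigenes), of 67955 in the series, were chosen by their read rates, which are reads over the total of the library with counts under 3 set to 3. A member had at least 20 reads in drought 72 h, a rate there at least 1.8 times that of the control, and a rate in cold 72 h at most 0.5 times that of the control. The values at 72 h and of the control therefore chose the members and are given as a description, while drought at 1 and 24 h and cold at 1 h played no part in the choice.

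The leaves came from wild-type Ammopiptanthus mongolicus, a desert shrub of Central Asia that keeps broad leaves through winter, and the labels give the tissue as mesophyll. The 6 RNA-seq libraries were drought at 1, 24 and 72 h, cold at 1 and 72 h, and 1 untreated control with no time given. Each treatment and time was 1 library, so the differences have no replicate check and carry no p-value. The intervals below are exact 95% counting intervals, which compare libraries and cover counting error only, since the reads carry no molecular identifiers and are not independent molecules. The sources used here do not say how many plants went into a library.

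Leaves that lose water accumulate abscisic acid, close their stomata, and raise transcripts for osmolyte synthesis and for proteins that protect dehydrated cells. Cooling acts through a partly separate route in which CBF transcription factors switch on cold-regulated genes, and growth and photosynthesis transcripts commonly decline. Both routes overlap, since freezing and chilling also limit water supply. The files used here give unigenes by identifier without a gene name, so none of this background can be attached to a member, and the mesophyll label could not be checked against marker genes. Sequences of the unigenes were not used here.

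Libraries held 4.30 to 4.67 M uniquely assigned reads (M, 1e6). Cold 72 h was unlike the other libraries. It had the fewest detected unigenes (56933, against 58539 to 60009 in the 5 others), and the 21455 unigenes with at least 20 reads in drought 72 h had a median log2 ratio to the control of -0.29 there, against 0.01 to 0.05 in the other stress libraries. With trimmed-mean (TMM) scaling the cold 72 h median was -0.01, so that shift depends on the scale. A scaling factor moves all unigenes of a library alike, so it shifts the members' ratios and those of the 21455 by the same amount. In bulk leaf RNA, fewer cells of a type and less RNA per cell cannot be told apart.

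Of the 21455 unigenes, 1532 (7.14%) reached 1.8 times the control in drought 72 h and 4206 (19.6%) were at or under 0.5 times the control in cold 72 h. Both conditions held for the 248 members, 1.16% of the 21455. The reverse rule, at least 20 reads and 1.8 times the control in cold 72 h with at most 0.5 times the control in drought 72 h, found 336 unigenes. Among the members the median ratio to the control was 2.18 in drought 72 h and 0.326 in cold 72 h. Cold 72 h was the lowest of the 6 libraries for 243 members. The rule itself put cold 72 h below the control and below drought 72 h, and this count was not made for other unigenes.

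**Figure D1:**
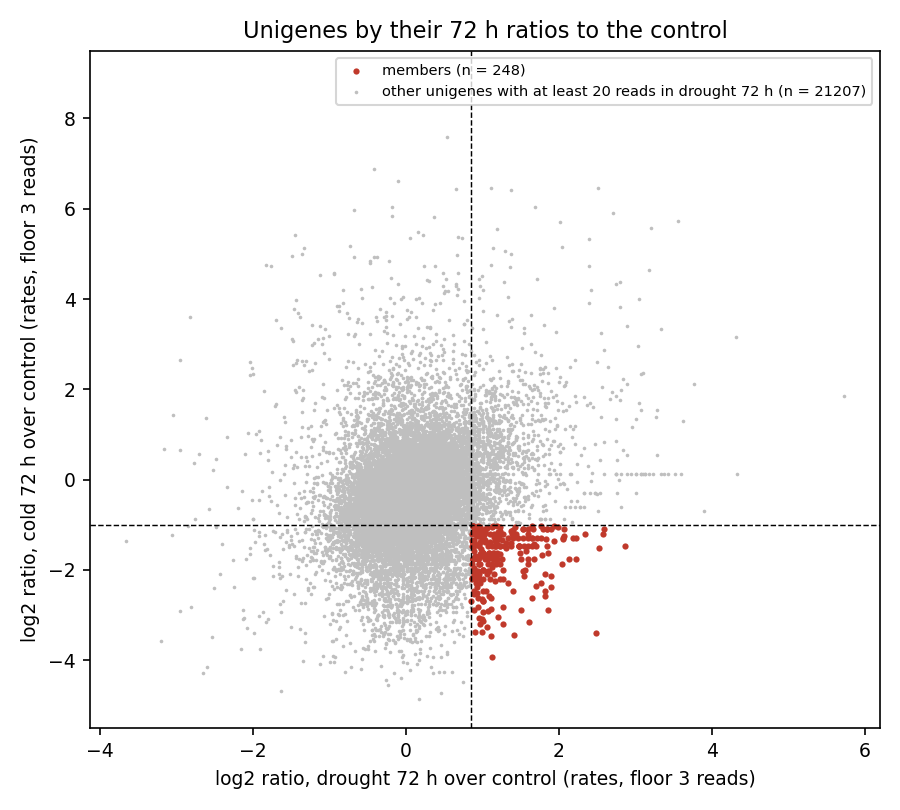
Each point is 1 unigene with at least 20 reads in drought 72 h, placed by the log2 ratio of its rate in drought 72 h over control (x axis) and in cold 72 h over control (y axis), with counts under 3 set to 3. The dashed lines are the limits of 1.8 and 0.5 times the control, and the 248 members fill the lower right corner beyond both by construction.

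Most members were measured by few reads. In drought 72 h, 132 had 20 to 39 reads, 60 had 40 to 99 and 56 had at least 100, of which 13 had at least 500. The interval of the drought 72 h over control ratio excluded 1 for 210 members (84.7%), and that of cold 72 h over control excluded 1 for 162 (65.3%). Both intervals excluded 1 for 143. Of the 21455 unigenes, 6.17% in drought 72 h and 18.4% in cold 72 h met both the size condition of the rule and an interval beyond 1. Every member meets the size condition by construction, so these background shares are held to a stricter condition than the interval alone. Because the rule used these contrasts, the shares say only how precisely the members were counted. Members with 0 reads in cold 72 h numbered 15, and 71 had under 3 reads there. The smallest qualifying ratios in drought were 1.809 for Unigene36060_All and 1.813 for CL7876.Contig2_All and Unigene25296_All. Just outside stood CL27.Contig2_All, CL6452.Contig1_All and CL8143.Contig1_All, each at 1.799. On the cold side, CL6900.Contig2_All, CL7035.Contig3_All and CL9642.Contig8_All qualified at 0.4938, while Unigene13392_All and Unigene4569_All at 0.5014 and CL5240.Contig2_All at 0.507 did not. At the read limit, 15 members had exactly 20 reads in drought 72 h and 11 unigenes with 19 reads met the other conditions.

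The members' reads together made up 0.410% (0.404 to 0.416) of the drought 1 h library, 0.700% (0.692 to 0.708) at 24 h and 0.613% (0.606 to 0.620) at 72 h. They made up 0.380% (0.375 to 0.386) of cold 1 h, 0.0773% (0.0747 to 0.0800) of cold 72 h and 0.257% (0.252 to 0.261) of the control (Clopper-Pearson 95% intervals). The rule fixed the shares at 72 h to lie above the control in drought and below it in cold. In the libraries it did not use, drought 1 h, drought 24 h and cold 1 h, the share was above that of the control. The control was itself used by the rule. Unigenes that met the drought 72 h condition and not the cold one also had larger shares there. They made up 2.995%, 4.075% and 3.178% of these 3 libraries, against 1.619% of the control.

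The most abundant member was Unigene2267_All (1487 bases). It stood at 272, 505 and 432 RPKM in drought at 1, 24 and 72 h, 275 and 92.1 RPKM in cold at 1 and 72 h, and 211 RPKM in the control. Both 1 h libraries were alike for this unigene, with a cold 1 h over drought 1 h ratio of 1.01 (0.947 to 1.08). Unigene1814_All (829 bases) had 193, 499 and 343 RPKM in drought, 292.5 and 49.9 RPKM in cold, and 165 RPKM in the control. Here cold 1 h exceeded drought 1 h, by 1.52-fold (1.38 to 1.67), while cold 72 h was the lowest library. Unigene2216_All (1277 bases) had 92.6, 278 and 179 RPKM in drought, 105 and 21.9 RPKM in cold, and 45.2 RPKM in the control. Its control-relative ratio in cold was 2.32 (2.01 to 2.69) at 1 h and 0.483 (0.386 to 0.601) at 72 h, on opposite sides of 1. Unigene3398_All (806 bases) varied least of these, with 125, 192 and 199.5 RPKM in drought, 129.5 and 43.8 RPKM in cold, and 104 RPKM in the control. Under TMM scaling Unigene2267_All, Unigene2216_All and Unigene3398_All were at 0.531, 0.587 and 0.512 times the control in cold 72 h, still below it but outside the limit, as was Unigene23964_All at 0.524.

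Of the 8 members with the most reads in drought 72 h, 3 had fewer RPKM in cold 1 h than in the control. CL7015.Contig1_All (900 bases) had 167, 302 and 204 RPKM in drought, 102 and 12.1 RPKM in cold, and 103 RPKM in the control. CL5680.Contig1_All (624 bases) had 168, 216 and 232 RPKM in drought, 111 and 21.2 RPKM in cold, and 122 RPKM in the control. In CL7015.Contig1_All and CL5680.Contig1_All the interval of cold 1 h over control spanned 1, at 0.868 to 1.14 and 0.780 to 1.06. Unigene23964_All (1465 bases) had its excess late, with 29.3, 34.6 and 115.9 RPKM in drought, 16.3 and 9.84 RPKM in cold, and 22.8 RPKM in the control. Its 788 reads in drought 72 h compare with 218 at 24 h, and its cold 1 h value was 0.717 times the control (0.556 to 0.923), the only one of the 3 whose interval lay below 1.

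The 95% intervals of both 72 h ratios lay beyond 2-fold for 11 members. CL8238.Contig1_All (1105 bases) had 168, 415 and 199 RPKM in drought, 56.8 and 3.37 RPKM in cold, and 35.4 RPKM in the control. Its drought 72 h value was 59.0-fold (36.2 to 104) that of cold 72 h. By the lower bound of the interval it was also the member furthest above the control in drought 1 h, by 4.75-fold (4.04 to 5.61), and in drought 24 h, by 11.7-fold (10.05 to 13.7). In cold 1 h it was 1.60-fold (1.33 to 1.94) above the control. Drought 24 h was its highest library and both cold libraries lay below all 3 of drought, an order found in 5 of the 11. In 5 others cold 1 h was above drought 1 h. Unigene37694_All (786 bases) had 129, 271 and 128 RPKM in drought, 52.2 and 7.69 RPKM in cold, and 39.5 RPKM in the control. Unigene17789_All (396 bases) had 156, 319 and 238 RPKM in drought, 101 and 12.3 RPKM in cold, and 76.2 RPKM in the control. Unigene24762_All (642 bases) had 127, 339 and 224 RPKM in drought, 103 and 24.99 RPKM in cold, and 74.99 RPKM in the control. All 11 were above the control in cold 1 h, and 9 had their highest value in drought 24 h. The 11 were chosen by ratios to this same control. Their library orders were not counted in other unigenes, so whether they differ from those was not tested.

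Unigene25124_All (1300 bases) had 45.2, 131 and 101 RPKM in drought, 60.9 and 7.87 RPKM in cold, and 34.6 RPKM in the control. CL3716.Contig2_All (927 bases) had 103, 179 and 148 RPKM in drought, 73.4 and 13.5 RPKM in cold, and 43.4 RPKM in the control. Unigene36547_All (875 bases) had 41.1, 94.6 and 69.95 RPKM in drought, 74.99 and 2.39 RPKM in cold, and 26.2 RPKM in the control. In this last unigene cold 1 h was 2.87-fold (2.29 to 3.61) above the control and cold 72 h 10.9-fold (5.55 to 24.6) below it.

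The remaining members with both intervals beyond 2-fold had fewer reads. Unigene799_All (407 bases) had 27, 126 and 91 reads in drought, 53 and 4 in cold, and 26 in the control. Unigene32835_All (427 bases) had 22, 95 and 63 reads in drought, 38 and 1 in cold, and 17 in the control. In drought 1 h their ratios to the control were 1.13 (0.633 to 2.01) for Unigene799_All and 1.41 (0.712 to 2.82) for Unigene32835_All, so a difference in either direction was not resolved at these counts. Unigene37907_All (351 bases) had 44, 44 and 86 reads in drought, 35 and 3 in cold, and 24 in the control. CL4737.Contig1_All (828 bases) had 98, 60 and 158 reads in drought, 118 and 7 in cold, and 56 in the control, with a dip at 24 h. Its reads lay on only 15.2 to 16.8% of its length in the 6 libraries, so its counts come from a short stretch.

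**Figure D2:**
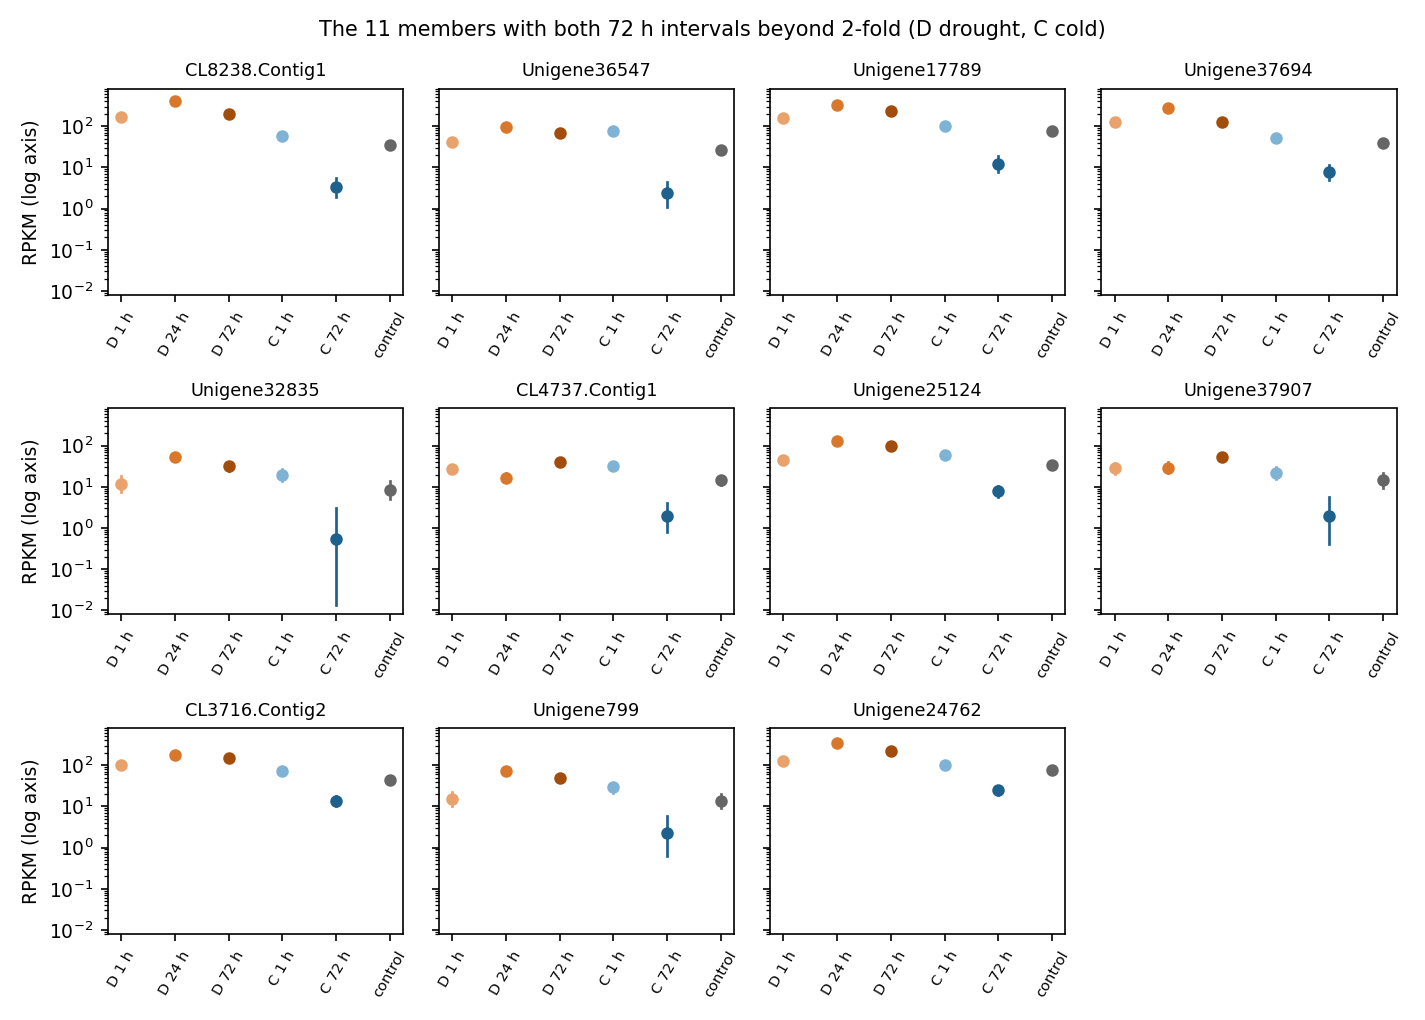
RPKM on a log axis for the 11 members whose 72 h ratios to the control both had 95% intervals beyond 2-fold, in the 6 libraries (D drought, C cold), with 1 point per library and bars for the exact 95% Poisson interval of its count. In each panel cold 72 h is the lowest point, and in 9 of the panels drought 24 h is the highest.

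Outside those 11, the widest gaps between drought 72 h and cold 72 h by the lower bound were those of Unigene35492_All and Unigene17921_All. Unigene35492_All (1163 bases) had 116, 162 and 287 reads in drought, 154 and 8 in cold, and 133 in the control, a 33.3-fold gap (16.7 to 77.8). Its cold 72 h value was 15.3-fold (7.55 to 36.2) below the control. Unigene17921_All (566 bases) had 16, 73 and 65 reads in drought, 52 and 0 in cold, and 9 in the control. With its 0 reads set to the floor of 3, the ratio of drought 72 h to cold 72 h was 20.1, and the lower 95% bound from the counts was 15.9. In cold 1 h it was 5.99-fold (2.92 to 13.8) above the control.

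The libraries that played no part in the choice were then set against the control. A member was counted as higher where its rate was at least 1.8 times that of the control and the interval lay above 1, and as lower where it was at most 0.5 times and the interval lay below 1. In drought 24 h, 128 members (51.6%) were higher and 3 (1.21%) lower, beside 6.82% and 4.07% of the 21455 unigenes with at least 20 reads in drought 72 h. In drought 1 h, 53 (21.4%) were higher and 0 lower, beside 4.46% and 1.58%. In cold 1 h, 59 (23.8%) were higher and 2 (0.806%) lower, beside 5.0% and 1.65%. The median log2 ratios of the members were 1.03 in drought 24 h, 0.52 in drought 1 h and 0.59 in cold 1 h, where those of the 21455 were 0.01, 0.03 and 0.05. Cold 1 h therefore stood on the drought side of the control for most members. By direction alone, 211 of the 248 were above the control in cold 1 h, beside 199 in drought 1 h and 227 in drought 24 h. Of the 21455 unigenes, 12078, 11390 and 10884 were above the control in these libraries, in the same order.

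All of these ratios share the control library with the rule, which required a control rate low beside drought 72 h and high beside cold 72 h. Other sets under the same control meet only 1 side of the rule. Of the 1284 other unigenes that met the drought 72 h condition and not the cold 72 h one, 52.3% were higher than the control in drought 24 h, 37.5% in drought 1 h and 41.4% in cold 1 h. Of the 3958 that met the cold 72 h condition and not the drought one, 3.01% were higher in drought 24 h, 1.24% in drought 1 h and 1.31% in cold 1 h. The members' share at 24 h was close to that of the 1284, and at 1 h it lay between those of the 2 sets in both stresses. Differences between the sets, and the part of the shared control in these shares, were not tested. Among the 56 members with at least 100 reads in drought 72 h, 40 were higher than the control in drought 24 h, 14 in drought 1 h and 11 in cold 1 h. Of all 7621 unigenes with at least 100 reads there, 5.48%, 3.12% and 3.11% were higher in the same 3 libraries.

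**Figure D3:**
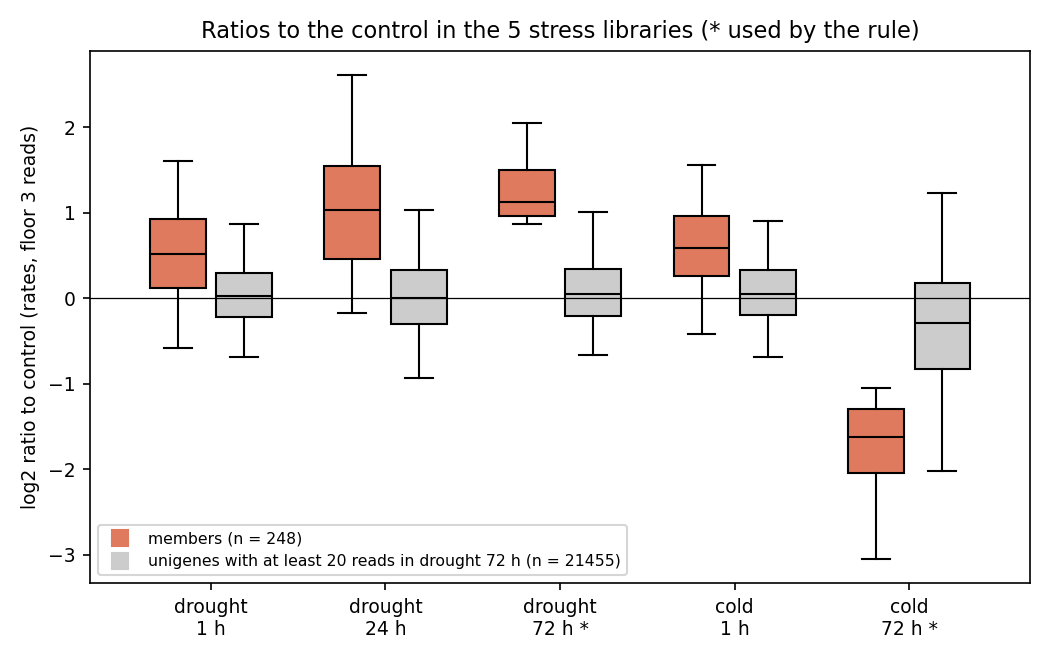
Log2 ratios to the control in the 5 stress libraries for the 248 members and for the 21455 unigenes with at least 20 reads in drought 72 h, with boxes from the 25th to the 75th percentile, a line at the median and whiskers from the 5th to the 95th percentile. The members lie above the control in cold 1 h (median 0.59) and below it in cold 72 h (median -1.62), a library that the rule used along with drought 72 h.

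A pair of comparisons involves neither the control nor a 72 h library. In drought 24 h against drought 1 h, 72 members (29.0%) were higher and 8 (3.23%) lower, beside 3.28% and 2.98% of the 21455 unigenes. The median log2 ratio was 0.55 for the members and 0.00 for the 21455, and 195 of the 248 had more RPKM at 24 h than at 1 h. By rate, 10746 of the 21455 were above their drought 1 h value at 24 h. Of the 1284 other unigenes high in drought 72 h, 15.1% were higher at 24 h than at 1 h, with a median log2 ratio of 0.24. Of the 3958 unigenes low in cold 72 h that did not meet the drought condition, 3.99% were, with a median of 0.00. The 336 unigenes of the reverse rule went the other way, with 0.298% higher, 36.3% lower and a median of -1.0. Among members with at least 100 reads in drought 72 h the share higher was 39.3%, beside 1.85% of the 7621 unigenes of that depth, and the median was 0.66, and among those under 40 reads the median was 0.50.

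In cold 1 h against drought 1 h, 29 members (11.7%) were higher and 18 (7.26%) lower, beside 3.09% and 2.23%. The median log2 ratio was 0.13 for the members and 0.04 for the 21455. At the median the members were thus not lower in cold than in drought at 1 h, the direction seen at 72 h. Both the higher and the lower shares exceeded those of the 21455. Among members with at least 100 reads, 2 (3.57%) were higher and 3 (5.36%) lower, beside 1.09% and 1.43% of the 7621, and the median was -0.06. The members that differed at 1 h did so both ways. Unigene36531_All (676 bases) was 4.97-fold (4.29 to 5.78) lower in cold 1 h than in drought 1 h. It had 71.2 and 23.0 RPKM in cold at 1 and 72 h, whereas drought at 1, 24 and 72 h gave 353.5, 108 and 165 RPKM, and the control 89.3 RPKM. CL8238.Contig1_All was 2.97-fold (2.59 to 3.41) lower in cold 1 h. CL4569.Contig2_All (733 bases) was 6.29-fold (2.62 to 18.3) lower in cold 1 h, with 6 reads against 36, and was at 0 reads in drought 24 h and in cold 72 h. The contigs of its assembly cluster, CL4569, summed to 251 reads in cold 1 h and 232 in drought 1 h, so the cluster as a whole was not lower. In the other direction, Unigene35338_All (1385 bases) was 3.50-fold (2.05 to 6.26) higher in cold 1 h, with 66 reads against 18. Unigene5476_All (371 bases) had 31 reads in cold 1 h and 4 in drought 1 h, a ratio of 7.40 (2.62 to 28.8), and 0 reads in cold 72 h.

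**Figure D4:**
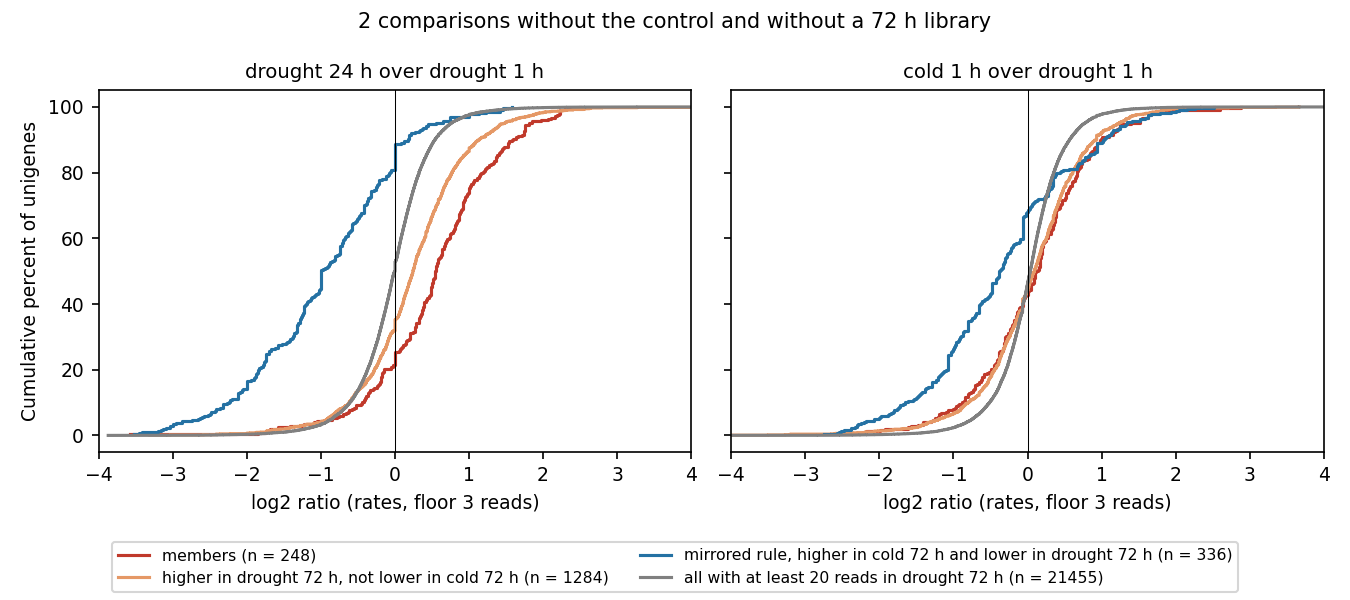
Cumulative percent of unigenes by log2 ratio of rates, for drought 24 h over drought 1 h (left) and cold 1 h over drought 1 h (right), in the members, the other unigenes high in drought 72 h, the reverse rule and all unigenes with at least 20 reads in drought 72 h. On the left the members have a median of 0.55 and the reverse rule one of -1.0, and on the right the members' median of 0.13 lies near the 0.04 of all unigenes.

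The members can be described by their highest library within drought, though the rule favoured drought 72 h and 132 of the 248 had under 40 reads there. Drought 72 h was the highest of the 3 drought libraries for 143 members, drought 24 h for 96 and drought 1 h for 9. Steps upward at both 24 and 72 h were seen in 99. The sets so formed are chosen by their drought values, and their levels are a description. The 96 members highest at 24 h had medians of 1.59, 3.37 and 2.26 times the control at 1, 24 and 72 h. The 143 highest at 72 h had medians of 1.31, 1.56 and 2.13 times the control. In cold 1 h the medians were 1.71 times the control for the 24 h set, 1.43 times for the 72 h set and 1.51 times for the 9 highest at 1 h. Of those 9, Unigene36531_All had the most reads, with 1029, 315 and 517 in drought. Counting all 6 libraries, 19 members had their highest value in cold 1 h. The counts by highest library and of upward steps were made for the members only, so whether they differ from other unigenes was not tested.

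A few members went against the general course in the libraries the rule did not use. Lower than the control in drought 24 h were CL4569.Contig2_All, CL5722.Contig2_All and Unigene27361_All, each with 0 reads there and 37, 30 and 28 reads in drought 72 h. The summed contigs of clusters CL4569 and CL5722 were not lower, with 293 and 1571 reads in drought 24 h beside 206 and 1075 in the control. Lower in cold 1 h were CL5722.Contig2_All, with 0 reads against 16 in the control, and Unigene41102_All, with 1 against 8. Under TMM CL5722.Contig2_All was at 0.577 times the control in cold 72 h, outside the limit. Its cluster as a sum had 1644 reads in cold 1 h beside 1075 in the control, and stood at 1.367 times the control in cold 72 h. The values of this contig thus went against those of its cluster. Unigene27361_All and Unigene41102_All are named because so few met these conditions, after their values were seen. CL1765.Contig5_All (1403 bases) was below the control in cold 1 h with an interval of 0.453 to 0.910, and its 11.6 and 11.4 RPKM in drought 1 and 24 h were near the 13.7 RPKM of the control, beside 25.5 RPKM in drought 72 h.

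Members were short. Their median length was 484.5 bases, against 831 for the 21455 unigenes, 595 for the 1284 other unigenes high in drought 72 h and 492.5 for the 336 of the reverse rule. Of the members, 48.0% had at least 500 bases, beside 76.5% of the 21455 and 41.2% of the whole series. Members also had fewer reads in drought 72 h, with a median of 36.5 beside 61 for the 21455. Their level was not unusual in drought 72 h, with a median of 19.6 RPKM against 18.3 RPKM for the 21455, whereas their control median was 8.24 RPKM against 17.7 RPKM. Both of these levels were used by the rule. Reads covered a median of 85.1% of a member's length in drought 72 h, against 85.2% for the 21455.

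By their identifiers, 73 members (29.4%) are contigs of 67 assembly clusters, a share beside the 30.9% of the 21455. Such contigs may be close copies or splice forms, among which unique assignment divides or drops reads, so the value of 1 contig is uncertain. In 6 clusters a pair of contigs were members. CL1868.Contig1_All and CL1868.Contig2_All had 134 and 62 reads in drought 72 h, 7 and 6 in cold 72 h, and 67 and 26 in the control. CL1674.Contig2_All and CL1674.Contig1_All had 134 and 28 in drought 72 h, 10 and 4 in cold 72 h, and 68 and 14 in the control. CL1775.Contig5_All and CL1775.Contig7_All had 48 and 28, then 2 and 4, with 11 and 14 in the control. In CL1868, CL1674 and CL1775 no other contig is listed. The summed reads of these clusters also met the rule, which was bound to hold because every contig is a member.

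The other 3 such clusters did not meet it as sums. CL1881.Contig4_All and CL1881.Contig3_All had 321 and 23 reads in drought 72 h, 36 and 0 in cold 72 h, and 177 and 12 in the control, and the sum over 4 contigs was 1.677 times the control in drought. CL3716.Contig2_All and CL3716.Contig3_All had 638 and 35, 54 and 3, and 188 and 11 reads in the same libraries. CL3716.Contig1_All, which is no member, had 190 reads in cold 72 h and 80 in the control, and the cluster as a sum stood at 0.9618 times the control in cold 72 h. CL4542.Contig1_All and CL4542.Contig4_All had 98 and 62, 13 and 9, and 29 and 20 reads, beside CL4542.Contig3_All at 108, 29 and 14, and the sum was at 0.8939 times the control in cold. Both CL4542 members, at 0.592 and 0.594 times the control under TMM, also left the cold limit. For CL3716 and CL4542 the cold 72 h value of the members thus came with the opposite value in a contig of the same cluster.

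Over all 67 clusters there were 97 contigs that were no members, of which 45 had at least 20 reads in drought 72 h, cold 72 h or the control. Of the 45, 26 were above the control in drought 72 h and below it in cold 72 h, 3 were the reverse, 7 were above in both and 9 below in both. In cold 72 h 16 were at or under 0.5 times the control and 4 at or over 1.8 times. Of the 21455 unigenes, 11963 were above the control in drought 72 h and 14233 below it in cold 72 h. In cold 72 h 19.6% of them were at or under 0.5 times the control, and 7.93% reached 1.8 times with an interval above 1. The 45 were kept by another read limit, and both directions together were not counted for the 21455, so whether the 45 differ was not tested. Summed over contigs, 30 of the 67 clusters met the rule, among them CL8238, CL7015 and CL4737. In CL8238 and CL4737 the other contig had 2 reads in drought 72 h, and in CL7015 it had 17. These sums are thus nearly the member alone. In CL4928, CL7657 and CL9289, which also met the rule, only 1 contig is listed, so the sum is the member. Such clusters met the rule through the choice of the member. CL5680 did not, at 1.64 times the control in drought 72 h and 0.1351 times in cold 72 h.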

How the data were processed

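For every unigene of a library, the authors deposited a count of uniquely assigned reads, its length, the percent of that length covered and its RPKM, per the file headers. The submitters' processing notes name Bowtie 0.12.2. No assembler, filter or strandedness is stated in the sources used here. The series' text mentions triplicates, but each treatment and time is 1 sample here. The deposited RPKM matched count, length and total within a relative 8.68e-09. Unigenes missing from a table were taken as 0 reads.

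Rates used counts with a floor of 3 reads (0.642 to 0.698 CPM). Ratio intervals were Clopper-Pearson (scipy 1.17.1), conditional on the summed reads, and the computation was tested on simulated data. Alternative scalings came from edgeR 4.0.16 and DESeq2 1.42.0 in R 4.3.3, and Python 3.11.15 was used.

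The unigenes named were those with the most reads, the widest 72 h gap by lower bound, both intervals beyond 2-fold, the extreme 1 and 24 h ratios, shared clusters, and values next to each limit. The members, lists and rules were chosen with earlier results of these data known. Gene lists and cell type markers could not be applied without gene names.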

Additional observations from a re-analysis of the deposited data

Results flagged for a closer look

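At 1 h, 2 members lay on opposite sides of the control in drought and in cold, each with an interval that excluded 1. With 1 library per condition the difference was not tested across samples. Unigene36531_All was at 3.96 times the control in drought 1 h (3.47 to 4.53) and at 0.797 times in cold 1 h (0.665 to 0.955). Unigene23964_All was at 1.29 times the control in drought 1 h (1.03 to 1.60) and at 0.717 times in cold 1 h (0.556 to 0.923). Among all 21455 unigenes with at least 20 reads in drought 72 h, 247 (1.15%) met the same condition, so the 2 members (0.806%) are no larger a share.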

How the results depend on the processing

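The member count of 248 became 92 with a floor of 10 reads, 116 with at least 40 reads in drought 72 h, 143 with both 72 h intervals excluding 1, 11 with both beyond 2-fold and 119 with unigenes of at least 500 bases. It was 56 with at least 100 reads, an alternative chosen after seeing the data. TMM, upper-quartile and median-of-ratios scaling left 188, 195 and 175, all of them members.

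The shares below are percent of members. In brackets is the share of the 21455 unigenes, or of those among them that the setting keeps. With the interval required to lie beyond 2-fold, drought 24 h against control had 21.8 (1.46) higher and 0.403 (1.0) lower, drought 1 h against control 2.82 (0.606) higher, and cold 1 h against control 3.23 (0.615) higher and 0.403 (0.368) lower. Drought 24 h against drought 1 h had 8.06 (0.419) higher and 0.806 (0.699) lower, and cold 1 h against drought 1 h 1.21 (0.177) higher and 2.02 (0.578) lower. With a stricter confidence level the shares were 10.5 (2.40) higher in drought 1 h and 0.403 (2.67) lower in drought 24 h, 11.7 (2.54) higher and 0.403 (1.08) lower in cold 1 h, 1.21 (1.91) lower in drought 24 h against drought 1 h, and 3.63 (1.17) higher and 4.03 (1.49) lower in cold 1 h against drought 1 h. With at least 40 reads, 0 (2.94) were lower than the control in drought 24 h and 0 (1.14) in cold 1 h. At that depth 0.862 (2.07) were lower in drought 24 h than in drought 1 h. With at least 100 reads these were 0 (2.40), 0 (0.879) and 1.79 (1.46), and 3.57 (1.09) were higher in cold 1 h than in drought 1 h. Single unigenes had 0.571 (3.97) lower in drought 24 h, and RPKM with 1 added gave 0.403 (1.26) lower in drought 1 h. Members with both 72 h intervals excluding 1 had 0 lower in cold 1 h, a setting without a share over all unigenes. The cause was not tested. The other 103 values moved by at most 1.5 times for counts and percents, or by less than the members' median interval half-width for medians.

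No paired analysis was possible because each group is 1 library. Depth limits the members under 40 reads most, and nothing here measures the spread between plants.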
